A study of Mus musculus with 4 samples.

Results

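Olig2 and Olig1, 2 genes of the 21774 protein-coding genes on the assembled chromosomes of the mouse annotation, lie next to each other on chromosome 16. Olig2 spans 16:91225550-91228677 and Olig1 16:91269769-91271939, both on the plus strand. They were taken by name, and their contacts were read in a window of 700.0 kb around them, 16:90900000-91600000 of GRCm38. The window holds 87 whole bins of 8 kb, which form 3828 possible pairs. Of these pairs, 3005 were listed in ESCs, out of 23095428 in the genome, and 2801 were listed in MNs, out of 21005697.

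Olig1 and Olig2 encode basic helix-loop-helix transcription factors of the ventral neural tube. Sonic hedgehog signalling turns Olig2 on in the progenitor domain that first gives rise to motor neurons and later to oligodendrocyte precursors, and Olig2 is shut off as motor neurons mature. Olig1 is coexpressed in much of that domain and is best known for its part in oligodendrocyte maturation and remyelination. Distant enhancers reach their promoters across the chromatin loops of a locus, and such loops often end at sites bound by CTCF and cohesin.

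Micro-C ligates cross-linked nucleosomal fragments that lie close to each other in the nucleus, so a contact between 2 bins is a measure of how often they meet. The libraries were WT ESCs and PATZ1 KO ESCs of the E14 line, kept in LIF with MEK and GSK3 inhibitors, and WT MNs and PATZ1 KO MNs made from these cells through embryoid bodies with retinoic acid and SAG, a smoothened agonist that stands in for Sonic hedgehog. PATZ1 is a zinc finger protein, and its gene was disrupted with 1 guide RNA in clonal lines. The clone used was not given in the sources used here, and neither was the share of cells in the MN cultures that were motor neurons. Each group had 1 library from its own pool of cells, so no difference below has a replicate check, and none between 2 libraries was tested.

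The columns of the lists carry no sample name. Library 1 of each list was read as WT and library 2 as PATZ1 KO, as the name of the comparison orders them, and every direction of PATZ1 KO over WT rests on this reading. The bin with the start of Patz1 held 562 contacts in library 1 and 399 in library 2 of the ESC list, and 380 and 228 in the MN list. Relative to the listed totals, library 2 was lower by a log2 ratio of -0.40 (95% counting interval -0.59 to -0.22) in ESCs and -0.83 (-1.07 to -0.59) in MNs. Among all bins of the genome with at least 100 contacts in the 2 libraries, 0.17% in the ESC list and 0.075% in the MN list had a lower ratio. How the disruption changes the contacts of this bin was not given in the sources used here, so these values alone do not settle the reading.

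Contacts listed over all chromosomes came to 170946673 and 160496081 in WT and PATZ1 KO ESCs, and to 110991835 and 118032533 in WT and PATZ1 KO MNs. The window held 41143, 39308, 30621 and 27304 of them in the same order. The Olig2 bin had 728, 748, 635 and 561 contacts in all and the Olig1 bin 830, 728, 602 and 534, against medians of 915, 826, 596 and 623 for a bin of chromosome 16. Contact was divided by its expected value, the mean of all chromosome 16 pairs at the same distance, to give observed over expected contact, in which 1 is the average. ESC and MN lists were made separately and only these within-list ratios were set side by side. Intervals are exact at the 95% level and cover counting error only.

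Olig2 and Olig1 lay between 2 ends that carried the strongest contact of the window among pairs with at least 40 contacts over the 4 libraries. The upstream end was taken as bins 16:91072001-91088000, 144 to 152 kb upstream of the Olig2 bin and inside the gene 4932438H23Rik. The downstream end was taken as bins 16:91344001-91360000, 120 to 128 kb downstream of the Olig2 bin, between Olig1 and Ifnar2. Both ends were chosen after the contacts of Olig2 had been seen, and what follows about them is a description. The sequences of the CTCF cores in these bins are shown because loops often end at such sites. The core was searched on both strands, is printed in capitals, and has 8 flanking bases on each side in lower case, on the strand given.
Upstream end, 16:91073685-91073714, minus strand, intron of 4932438H23Rik: aagtatcgCCAGTAGGTGGCAGacttggtc
Upstream end, 16:91081632-91081661, plus strand, intron of 4932438H23Rik: gctttctcCCACTAGATGGCAGtatttctc
Downstream end, 16:91358615-91358644, plus strand, between genes: ataaataaCCAGCAGAGGGCACtgttccct

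A core was present in 6 of the 87 bins of the window (6.90%), against 206 of 11871 bins of chromosome 16 without unknown bases (1.74%). It was thus found in both bins of the upstream end and in 1 of the 2 bins of the downstream end. The paper cites reports of loop anchors at 2 CTCF sites in convergent orientation. The downstream core was on the plus strand, so neither upstream core was convergent with it. The search used a single strict pattern that can miss CTCF sites, so a convergent site at either end was not excluded. The other 3 bins of the window with a core lay 264, 208 and 112 kb upstream of the Olig2 bin, within Synj1, Paxbp1 and 4932438H23Rik. The bins of Olig2 and Olig1 held none. In the 300 bases around the Olig2 start (16:91225300-91225599, RefSeq promoter table of GRCm38.p6), the G-rich heptamer GGGAGGG, known as a binding sequence of the PATZ1-related protein MAZ, had 0 matches on either strand, while 22.0% of all 32851 promoters of that table held it. These are matches of letters and not measured binding.

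The 4 pairs of bins that join the ends held 69 and 49 contacts in WT and PATZ1 KO ESCs, and 61 and 64 in WT and PATZ1 KO MNs. Observed over expected contact was 8.31 (6.46 to 10.5) in WT ESCs and 6.54 (4.84 to 8.64) in PATZ1 KO ESCs. It was 13.6 (10.4 to 17.5) in WT MNs and 14.0 (10.8 to 17.9) in PATZ1 KO MNs. With the expected value taken over listed pairs only, the 4 values were 5.79, 4.56, 7.16 and 7.37, and corrected for the number of contacts of each bin they were 8.01, 5.88, 8.29 and 13.7. Both MN values lay above both ESC values, and the interval of WT MNs overlapped that of WT ESCs only at its edge. The log2 ratio of MNs over ESCs was 0.71 (0.19 to 1.23) in WT cells and 1.10 (0.54 to 1.67) in PATZ1 KO cells. With the correction for bin contacts the WT ratio was 0.050, so its size depended on that choice. The ratio of PATZ1 KO over WT came to -0.35 (-0.90 to 0.20) for ESCs and 0.041 (-0.49 to 0.57) for MNs, and both intervals included 0. After the correction the MN ratio was 0.73.

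Among the 22131 pairs of chromosome 16 that lay 24 to 320 kb apart, were listed in both cell states and held at least 40 contacts over the 4 libraries, the pair of the bins 144 kb upstream and 128 kb downstream of Olig2 had the highest mean observed over expected contact, 14.5. The pair 144 kb upstream and 120 kb downstream came 3rd with 11.8. At least 2 times the expected contact in all 4 libraries was found in 1.55% of these pairs (344). In the window it was found in 13 of 225 such pairs (5.78%), and 10 of the 13 had at least 1 bin in an end. At 40 kb and beyond, fewer than 40 contacts were expected over the 4 libraries, so pairs that far apart passed the minimum only through contact above the average, and these ranks and shares are descriptions.

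**Figure D1:**
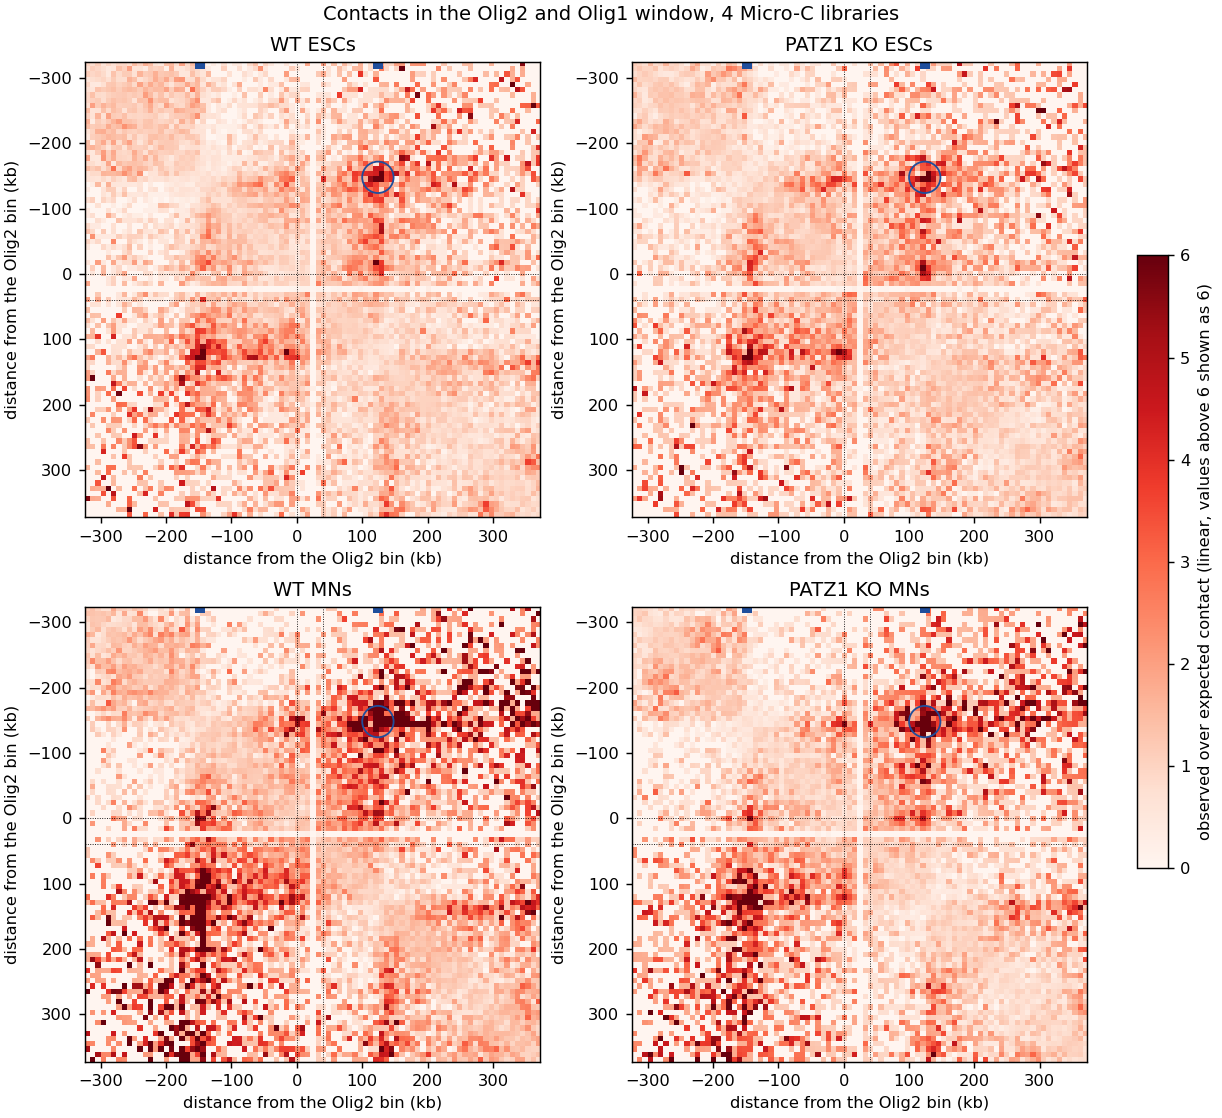
Observed over expected contact of all pairs of 8 kb bins in the window, 1 panel for each library, with both axes in kb from the Olig2 bin and colour on a linear scale that stops at 6. Dotted lines mark the Olig2 and Olig1 bins, blue bars at the top the 2 ends, and the circle their contact, which was 8.31, 6.54, 13.6 and 14.0 times the expected value in WT ESCs, PATZ1 KO ESCs, WT MNs and PATZ1 KO MNs. The pale stripe between the genes is the bin that held few contacts.

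Olig2 was in contact with the downstream end in every library. Its 2 bins shared 27 and 34 contacts with Olig2 in WT and PATZ1 KO ESCs, and 17 and 19 in WT and PATZ1 KO MNs, which was 3.29 (2.17 to 4.79), 4.75 (3.29 to 6.64), 3.68 (2.14 to 5.89) and 4.02 (2.42 to 6.28) times the expected value. The 4 intervals overlapped. The contact was not particular to the Olig2 bin. The bins 8 and 16 kb upstream had mean values of 4.84 and 4.36 with the bin at 120 kb, against 4.13 for Olig2. Of the 13 pairs counted above, 7 held at least 1 of these 2 bins and 2 held the Olig2 bin. The Olig2 bin had 6 pairs that could be counted. The number for the 2 upstream bins is not given, so these counts do not rank the bins. For PATZ1 KO over WT, ESCs gave 0.53 (-0.24 to 1.32) and MNs 0.13 (-0.89 to 1.16) on the log2 scale. MNs over ESCs was 0.16 (-0.81 to 1.09) in WT cells and -0.24 (-1.13 to 0.61) in PATZ1 KO cells, and the WT ratio turned to -0.045 over listed pairs only and to -0.53 with the correction for bin contacts. None of the 4 ratios could be told from 0 at this depth.

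Contact with Olig2 was lower directly beyond this end. The next 2 bins, at 136 and 144 kb, the second of which holds the start of Ifnar2, shared 4, 11, 2 and 2 contacts with Olig2 in WT ESCs, PATZ1 KO ESCs, WT MNs and PATZ1 KO MNs. That was 0.53, 1.67, 0.48 and 0.47 times the expected value, and the value of each library lay below its value at the end. The end was chosen for its height and the next bins after their contacts were seen, so the drop is partly fixed by the choice.

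The upstream end behaved less evenly. With its 2 bins Olig2 shared 6 and 19 contacts in WT and PATZ1 KO ESCs, and 22 and 17 in WT and PATZ1 KO MNs. Observed over expected contact was 0.84 (0.31 to 1.82), 3.00 (1.80 to 4.68), 5.61 (3.52 to 8.50) and 4.16 (2.43 to 6.67). At these 2 bins WT ESCs were alone at the average, and their interval did not reach that of WT MNs or PATZ1 KO MNs. MNs over ESCs was 2.75 (1.40 to 4.34) in WT cells and 0.48 (-0.56 to 1.50) in PATZ1 KO cells. The ratio of PATZ1 KO to WT came to 1.84 (0.46 to 3.46) for ESCs and to -0.43 (-1.43 to 0.55) for MNs. Corrected for bin contacts these ratios were 1.57 and 0.24, so the direction in MNs turned. The corrected values of WT ESCs and WT MNs were 1.07 and 3.90 times the expected value. With 4 bins in place of 2, the WT ratio of MNs over ESCs was 1.77 (0.82 to 2.78), and PATZ1 KO over WT in ESCs was 0.98 (0.010 to 2.00). The bin at 160 kb, which adjoins the end, gave 2.34, 1.34, 1.09 and 2.13 times the expected value in WT ESCs, PATZ1 KO ESCs, WT MNs and PATZ1 KO MNs. The adjoining bin at 136 kb gave 0.26, 0.90, 1.89 and 3.21 times. WT ESCs were thus highest at 160 kb and lowest at 136 kb, and their low value depended on the bins named as the end. The next 2 bins beyond the upstream end, at 160 and 168 kb, came to 1.50, 1.53, 1.68 and 1.36 times the expected value in the same order of libraries. That was above the end in WT ESCs and below it in the other libraries. The pairs of the end were chosen for their height, and the WT ESC value there rests on 6 contacts. The bins 8 and 16 kb upstream of Olig2 had 12 and 11 contacts with the bin at 144 kb in WT ESCs. That was 3.14 and 2.76 times the expected value, against 2.83 and 2.66 times, on 6 contacts each, in WT MNs. Both pairs were among the 13 counted above, which had at least 2 times the expected contact in every library. They could therefore not have been low in WT ESCs. Whether the low value is particular to the Olig2 bin was not tested.

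The contacts of Olig1 with the same ends are given beside those of Olig2, although the ends were chosen on the values of Olig2 and the 2 genes cannot be ranked on them. With the downstream end Olig1 shared 14, 11, 13 and 6 contacts in WT ESCs, PATZ1 KO ESCs, WT MNs and PATZ1 KO MNs, or 1.27 (0.69 to 2.13), 1.16 (0.58 to 2.07), 1.99 (1.06 to 3.41) and 0.89 (0.33 to 1.93) times the expected value. With the upstream end Olig1 shared 15, 6, 7 and 8 contacts, or 2.54 (1.42 to 4.19), 1.15 (0.42 to 2.50), 2.21 (0.89 to 4.56) and 2.43 (1.05 to 4.78) times the expected value. Here WT ESCs were the highest of the libraries for Olig1 and the lowest for Olig2. For Olig1 all intervals overlapped and WT ESCs (2.54) were close to PATZ1 KO MNs (2.43) and WT MNs (2.21), so this rank does not separate the libraries.

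**Figure D2:**
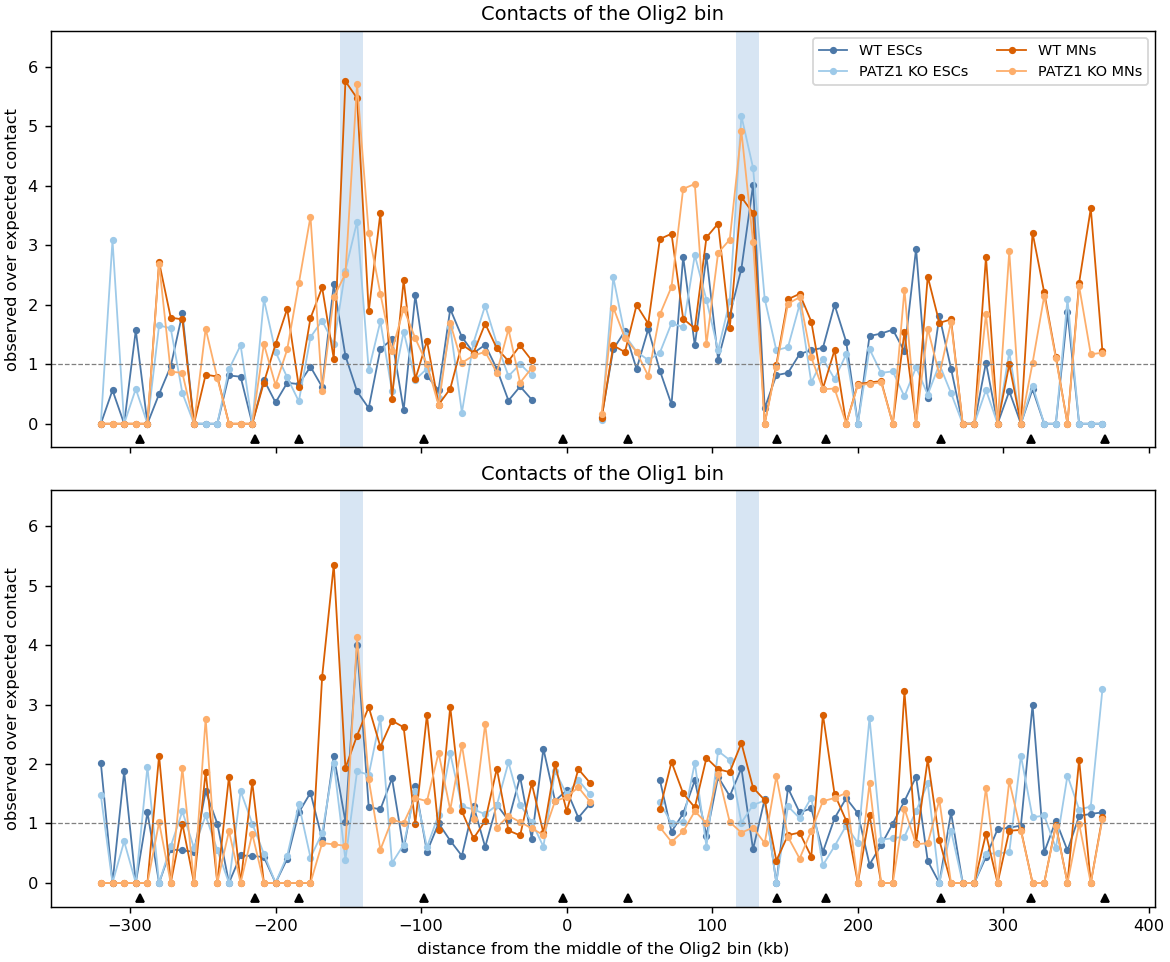
Observed over expected contact of the Olig2 bin (top) and the Olig1 bin (bottom) with every other bin of the window, against the distance from the middle of the Olig2 bin in kb, 1 line for each library. Bins within 2 bins of the gene are left out, shaded bands are the 2 ends, triangles mark gene starts and the dashed line is the average. In the downstream band Olig2 holds 3.29 to 4.75 times the expected contact and Olig1 0.89 to 1.99 times, and the highest bins of Olig2 in both MN libraries lie in the upstream band.

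The highest single bins for Olig2, among bins more than 2 bins away with at least 40 contacts over the 4 libraries, were those 120, 128 and 80 kb downstream. The bin at 120 kb had 11, 19, 9 and 12 contacts and 2.61, 5.18, 3.81 and 4.92 times the expected value in WT ESCs, PATZ1 KO ESCs, WT MNs and PATZ1 KO MNs. The bin at 128 kb had 16, 15, 8 and 7 contacts and 4.01, 4.30, 3.54 and 3.06 times. The minimum left out the bins 144 and 152 kb upstream, in the upstream end, with mean values of 3.78 and 3.00 on 36 and 28 contacts. The bin at 80 kb, with a mean of 2.54, was less even, with 16, 8, 6 and 14 contacts and 2.81, 1.62, 1.76 and 3.95 times the expected value.

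For Olig1 the same rule named the bin 64 kb downstream and the bins 48 and 32 kb upstream. At 64 kb it had 12, 13, 8 and 8 contacts, or 1.78, 2.22, 1.91 and 1.84 times the expected value. The 2 upstream bins adjoin the Olig2 bin on either side, and their values lay between 1.10 and 2.00. The minimum of 40 contacts left out farther bins of Olig1 with higher values. The highest of these with at least 20 contacts, a minimum chosen after the values were seen, were the bin of the upstream end 184 kb from Olig1, with 12, 5, 4 and 7 contacts and 3.997, 1.88, 2.48 and 4.13 times the expected value, and the bin at 200 kb, with 6, 5, 8 and 1 contacts and 2.14, 2.02, 5.35 and 0.65 times.

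The contact between the bins of the 2 genes could not be told from the average of bins 40 kb apart in any single library. This holds before correction for bin contacts. These bins, 16:91224001-91232000 for Olig2 and 16:91264001-91272000 for Olig1, shared 16 and 13 contacts in WT and PATZ1 KO ESCs, and 8 and 10 in WT and PATZ1 KO MNs. Observed over expected contact was 1.56 (0.89 to 2.53), 1.49 (0.79 to 2.54), 1.20 (0.52 to 2.37) and 1.44 (0.69 to 2.66). All 4 values were above 1 and all 4 intervals included 1. Corrected for bin contacts the values were 2.05, 1.75, 1.01 and 1.78, for which no intervals are given. Of the chromosome 16 pairs at this distance, 86.5%, 82.0%, 61.4% and 77.2% had fewer contacts in the same order of libraries.

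On the log2 scale, PATZ1 KO over WT of the Olig1 to Olig2 contact was -0.066 (-1.24 to 1.08) for ESCs and 0.26 (-1.23 to 1.81) for MNs. MNs over ESCs was -0.37 (-1.80 to 0.94) in WT cells and -0.043 (-1.39 to 1.26) in PATZ1 KO cells. Corrected for bin contacts, PATZ1 KO over WT in MNs was 0.82 and MNs over ESCs in WT cells -1.02, both within these intervals. The widest bounds were -1.80, for MNs over ESCs in WT cells, and 1.81, for PATZ1 KO over WT in MNs. Changes within the interval of each comparison were not excluded at this depth. In the square of 3 by 3 bin pairs around the 2 genes, which held 133, 162, 122 and 97 contacts, observed over expected contact was 1.35 (1.13 to 1.60), 1.92 (1.64 to 2.24), 1.91 (1.59 to 2.29) and 1.46 (1.18 to 1.78), with all 4 intervals above 1. In this square the ratio of PATZ1 KO over WT came to 0.51 (0.17 to 0.85) for ESCs and -0.39 (-0.79 to 0.0041) for MNs, the opposite direction to the single pair in both cell states. MNs over ESCs in the square was 0.51 (0.14 to 0.87) in WT cells, again opposite to the pair, and -0.40 (-0.78 to -0.025) in PATZ1 KO cells.

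**Figure D3:**
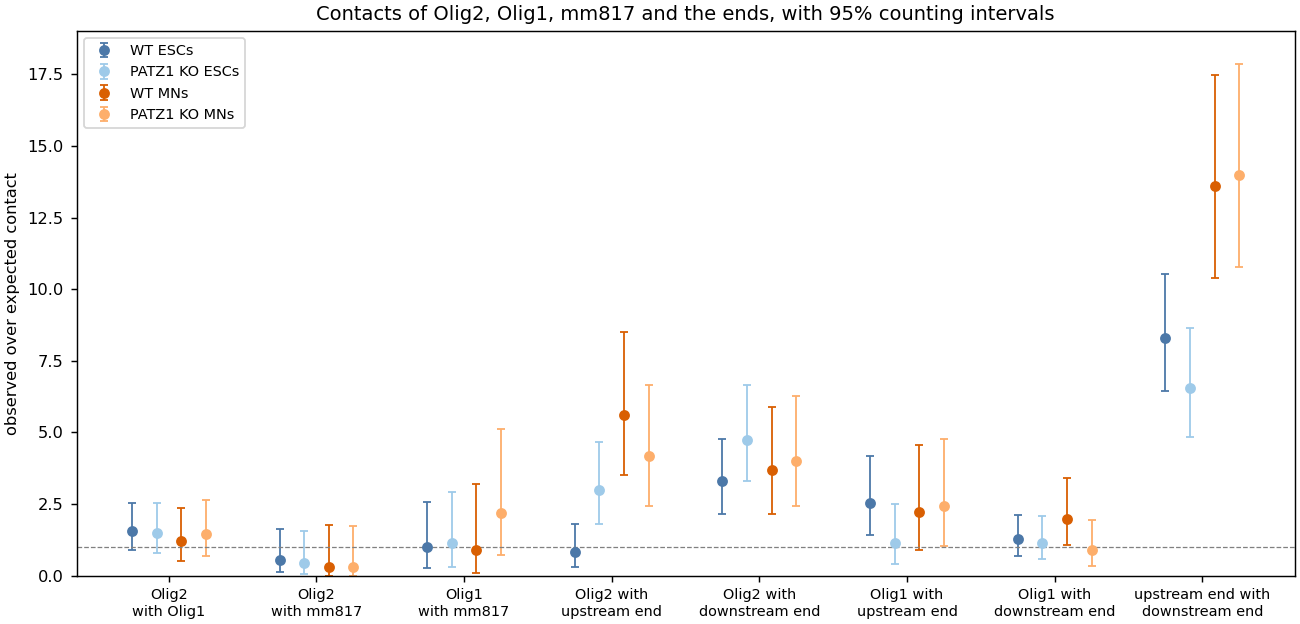
Observed over expected contact in the 4 libraries for Olig2 with Olig1, for both genes with mm817, the VISTA element of the window, and with the 2 ends, and for the ends with each other, with exact 95% counting intervals as bars and the average as a dashed line. The contact of the ends reaches 6.54 to 14.0, Olig2 with the downstream end 3.29 to 4.75, and the intervals of Olig2 with Olig1 include 1.

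The annotation holds 1 enhancer in the window, the VISTA element mm817 at 16:91139145-91142270, between genes and 84.8 kb upstream of the Olig2 start, measured to its middle. VISTA elements are tested in transgenic embryos, and mm817 is recorded as active in neural tube, midbrain and forebrain. Its bin shared 3, 2, 1 and 1 contacts with Olig2 in WT ESCs, PATZ1 KO ESCs, WT MNs and PATZ1 KO MNs, or 0.56, 0.44, 0.32 and 0.31 times the expected value. Each of the 4 was under the average, although each interval included 1 (upper bounds 1.58 to 1.79). With Olig1 the same bin shared 4, 4, 2 and 5 contacts, or 1.00, 1.15, 0.89 and 2.19 times the expected value, with the highest value in PATZ1 KO MNs (0.71 to 5.11). No enriched contact of mm817 with either gene was detectable at this depth.

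The other 9 protein-coding genes that start in the window showed no summed contact with Olig2 and Olig1 that could be told from the average. Downstream lie the receptor genes Ifnar2, Il10rb, Ifnar1 and Ifngr2, which encode chains of the class II cytokine receptors for interferons and interleukins of the IL-10 family. Their start bins together shared 20, 13, 16 and 15 contacts with both genes, or 0.84 (0.51 to 1.30), 0.62 (0.33 to 1.05), 1.22 (0.70 to 1.98) and 1.11 (0.62 to 1.83) times the expected value in WT ESCs, PATZ1 KO ESCs, WT MNs and PATZ1 KO MNs. Upstream lie Cfap298, a gene of cilia and flagella, Synj1, which encodes the synaptic phosphatase synaptojanin, Paxbp1 and 4932438H23Rik. Their start bins shared 15, 13, 13 and 11 contacts, or 0.66 (0.37 to 1.09), 0.65 (0.34 to 1.10), 1.05 (0.56 to 1.79) and 0.86 (0.43 to 1.53) times the expected value. The start bin of Tmem50b, the last gene, shared 2, 5, 2 and 2 contacts. Some intervals of Olig1 alone excluded 1, on few contacts and among many pairs. In WT MNs, Il10rb and 4932438H23Rik each had 2.83 (1.04 to 6.16) times the expected value. Ifngr2 had 2.99 (1.10 to 6.51) in WT ESCs and Tmem50b 3.25 (1.06 to 7.60) in PATZ1 KO ESCs. Ifnar2 had 0 contacts with Olig1 in WT and PATZ1 KO ESCs (upper bounds 0.80 and 0.91). For both groups of genes the MN values were higher than the ESC values of the same genotype, with overlapping intervals.

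Contacts of Olig2 and Olig1 were then summed over the sectors of the window, leaving out bins within 1 bin of each gene. Downstream of Olig1 the 2 genes had 393, 346, 286 and 243 contacts, or 1.20 (1.08 to 1.32), 1.21 (1.08 to 1.34), 1.49 (1.32 to 1.68) and 1.22 (1.07 to 1.38) times the expected value in WT ESCs, PATZ1 KO ESCs, WT MNs and PATZ1 KO MNs. Upstream of Olig2 they had 304, 318, 251 and 221 contacts, or 0.94 (0.83 to 1.05), 1.12 (1.00 to 1.25), 1.32 (1.16 to 1.50) and 1.12 (0.98 to 1.28). The downstream sector was above the average in all 4 libraries, and WT MNs were the highest library in both sectors, but the lowest with the correction for bin contacts (1.03 upstream and 1.17 downstream). Downstream, the values of Olig2 were 1.27, 1.37, 1.82 and 1.68 and those of Olig1 1.15, 1.09, 1.28 and 0.92. The intervals of the 2 genes overlapped in both ESC libraries and not in the MN libraries. This sector includes the downstream end, which was chosen on the values of Olig2, so the 2 genes cannot be ranked on it.

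Between the genes they had 77, 94, 78 and 69 contacts, or 0.67 (0.53 to 0.83), 0.95 (0.77 to 1.16), 1.05 (0.83 to 1.31) and 0.88 (0.69 to 1.12). This sector includes the bin 16:91248001-91256000, which held 47, 56, 34 and 29 contacts in all, against window medians of 856, 827, 666 and 576, and of which 93.7% is masked as repeat. Without it the values were 1.03, 1.50, 1.63 and 1.38, a choice made after its contacts had been seen.

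MNs over ESCs in WT cells was 0.50 (0.25 to 0.75) upstream, 0.66 (0.18 to 1.13) between and 0.32 (0.093 to 0.54) downstream on the log2 scale. In PATZ1 KO cells it was 0.0027 (-0.25 to 0.25), -0.10 (-0.57 to 0.36) and 0.019 (-0.22 to 0.26). The WT ratios join the highest library, WT MNs, with the lowest upstream and between the genes, WT ESCs. Corrected for the contacts of each bin, MNs over ESCs in WT cells was -0.069, 0.0024 and -0.27, so that the direction upstream and downstream turned, and in PATZ1 KO cells it was 0.16, 0.10 and 0.18. Within ESCs, PATZ1 KO over WT was 0.26 (0.027 to 0.49) upstream, 0.51 (0.059 to 0.96) between and 0.0089 (-0.20 to 0.22) downstream. Within MNs it was -0.24 (-0.51 to 0.028), -0.25 (-0.74 to 0.24) and -0.29 (-0.54 to -0.038), and all 3 turned with the correction, to 0.32, 0.34 and 0.32. The corrected ESC ratios were 0.088, 0.24 and -0.12. The bin contacts of this correction include the contacts being corrected, so a turn of sign does not decide a direction.

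All contacts of the window came to 1.02, 1.08, 1.25 and 1.02 times the expected value in WT ESCs, PATZ1 KO ESCs, WT MNs and PATZ1 KO MNs. The value of WT MNs was higher than that of 96.3% of the 136 windows of this size on chromosome 16, and those of the other libraries were higher than 55.9% (WT ESCs), 79.4% (PATZ1 KO ESCs) and 58.1% (PATZ1 KO MNs). The ratio of PATZ1 KO over WT came to 0.089 (0.069 to 0.11) for ESCs and -0.29 (-0.32 to -0.27) for MNs, where 86.8% and 9.56% of the windows were lower. MNs over ESCs was 0.30 (0.28 to 0.32) in WT cells and -0.084 (-0.11 to -0.062) in PATZ1 KO cells. Over pairs more than 2 bins apart it was 0.43 (0.40 to 0.47) and 0.063 (0.025 to 0.10), so the PATZ1 KO direction turned. Corrected for bin contacts all 4 directions turned. PATZ1 KO over WT was then -0.018 for ESCs and 0.29 for MNs, and MNs over ESCs -0.24 for WT and 0.068 for PATZ1 KO cells. The bin contacts of this correction include the contacts inside the window. A shift of the whole window is thus divided out through both bins of a pair, so the turned signs do not decide a direction. The part of these shifts of the whole window in the values of Olig2 and Olig1 was not tested.

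Single pairs were also counted where they lay 24 to 320 kb apart with a mean of at least 10 contacts in the 2 libraries compared. In MNs, PATZ1 KO was at least 2-fold lower than WT in 21 of 167 pairs of the window (12.6%), against 6.91% of all such pairs on chromosome 16, and at least 2-fold higher in 4, against 7.47%. In ESCs it was higher in 21 of 310 pairs (6.77%), against 4.56%, and lower in 14, against 4.97%. MNs were higher than ESCs in 34 of 280 pairs (12.1%) in WT cells, against 6.57%, and lower in 8, against 8.54%. In PATZ1 KO cells they were higher in 11 of 196 pairs, against 5.19%, and lower in 12, against 6.36%. Pairs with Olig2 or Olig1 were few: 1 of 18 was higher and 1 lower for PATZ1 KO over WT in ESCs, and 1 of 11 each in MNs. At 40 kb the expected contact was 10.3, 8.74, 6.64 and 6.93 in WT ESCs, PATZ1 KO ESCs, WT MNs and PATZ1 KO MNs. Pairs that far apart or farther thus passed the minimum only through contact above the average in at least 1 library. A library with more contact over the whole window adds pairs in which it is higher, and the part of this in the shares was not tested. Neighbouring pairs share reads of the same regions and are not independent.

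The insulation score was the log2 of summed observed over expected contact in a 200 kb square that spans a bin, so that a low value marks a boundary. At the Olig2 bin it was 0.58, 0.62, 1.21 and 0.85 in WT ESCs, PATZ1 KO ESCs, WT MNs and PATZ1 KO MNs. At the Olig1 bin it was 0.62, 0.70, 1.20 and 0.86. Neither gene lay at a boundary, and at least 95.7% of the bins of chromosome 16 scored lower than either of them in every library, as did at least 99.1% in the MN libraries. The scores were positive in each library with squares of 96 kb and 400 kb too.

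The score dipped at both ends. In the upstream end, at 152 kb from Olig2, it was -0.88, -0.77, -0.68 and -1.001, and 6.17%, 10.5%, 11.4% and 5.71% of the bins of chromosome 16 were lower. In the downstream end, at 128 kb, it was -0.17, -0.076, 0.028 and -0.30, a shallower dip, with 34.4%, 43.4%, 57.3% and 27.7% of bins lower. The order of the libraries was the same at both dips, with WT MNs highest and PATZ1 KO MNs lowest. The median bin of the window held 666 contacts in WT MNs, against 596 on chromosome 16, and 576 in PATZ1 KO MNs, against 623. The scores were not corrected for bin contacts, and the part of bin contacts in this order was not tested. A further local minimum lay at 264 kb, near the start of Ifnar1, where the ESC scores (-0.17 and -0.16) were under 0 and the MN scores (0.55 and 0.20) above it.

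**Figure D4:**
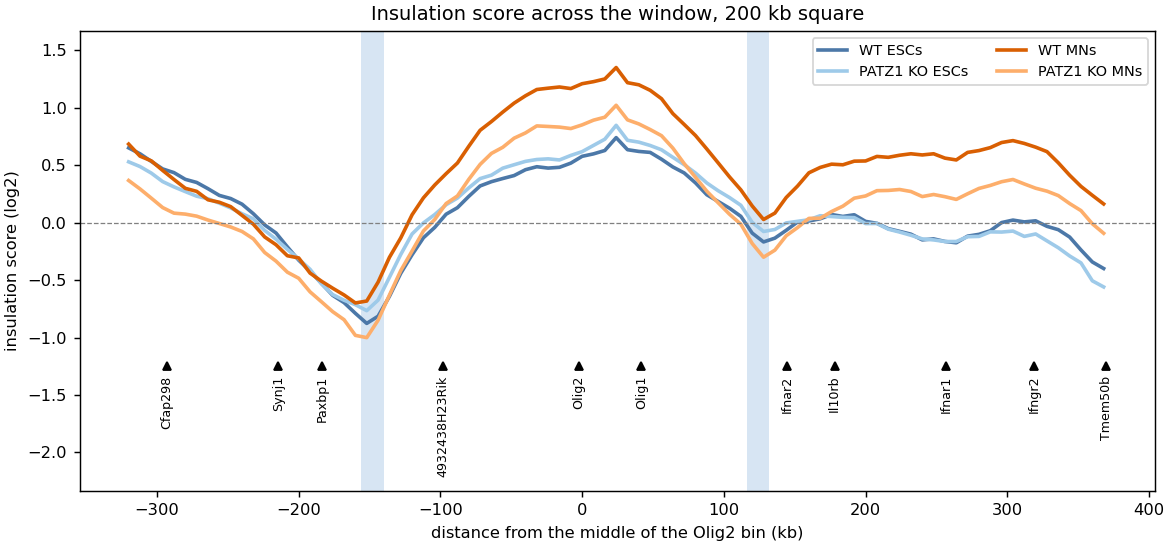
Insulation score (log2, 200 kb square) of each bin of the window against its distance from the middle of the Olig2 bin in kb, 1 line for each library. Shaded bands are the 2 ends, and triangles mark gene starts. The scores are highest around Olig2 and Olig1 and low in the upstream band, with -0.68 to -1.001 at 152 kb. That is the lowest bin in each library except WT MNs, whose lowest score, -0.70, lies 160 kb upstream.

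Contacts within and across the ends were then compared. Pairs more than 2 bins apart inside the region between the ends, which spans 256 kb, came to 1.26 (1.22 to 1.30), 1.38 (1.34 to 1.43), 1.66 (1.60 to 1.72) and 1.32 (1.26 to 1.37) times the expected value in WT ESCs, PATZ1 KO ESCs, WT MNs and PATZ1 KO MNs. Pairs that crossed the upstream end came to 0.61, 0.66, 0.74 and 0.62. Pairs that crossed the downstream end came to 0.93, 1.02, 1.24 and 1.00. In each library the order was the same, with the inside highest and the upstream crossing lowest. For Olig2 itself, the 16 bins inside and upstream of the gene gave 0.84, 1.06, 1.16 and 1.06, and the 21 bins of the window beyond the upstream end gave 0.68, 0.92, 0.91 and 0.99, with overlapping intervals in each library. On its other side, the 13 bins inside gave 1.08, 1.32, 1.63 and 1.54, and the 30 bins beyond the downstream end gave 0.91, 0.81, 1.14 and 0.95. For Olig1, the 21 bins inside and upstream gave 1.02, 1.17, 1.34 and 1.11, against 0.81, 0.80, 0.94 and 0.42 beyond the upstream end. The 8 bins inside and downstream of Olig1 gave 1.32, 1.19, 1.53 and 1.03, against 0.94, 0.98, 0.85 and 0.78 beyond the downstream end. On each side of both genes the inside value was higher in all 4 libraries, but the intervals overlapped in 13 of these 16 comparisons. The inside bins downstream of Olig2 and upstream of Olig1 include the bin of few contacts, 16:91248001-91256000. It had 0.054 to 0.17 times the expected contact with the 2 genes. The inside values were not recomputed without it, so the count of overlaps may depend on that bin.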

How the data were processed

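Micro-C libraries of WT and PATZ1 KO ESCs and MNs were made with a Dovetail kit (disuccinimidyl glutarate and formaldehyde, micrococcal nuclease), and mapping and HiCcompare were run by Dovetail. The submitters' processing notes name mm10, which is GRCm38. The interaction frequencies deposited are counts of contacts per pair of 8 kb bins. The adjusted interaction frequencies deposited are a signal that the authors normalized jointly against distance. A pair is listed where each library had at least 1 contact, so an unlisted pair, counted here as 0, may have held contacts in 1 library. Columns with the authors' own comparison (log2 ratios, Z scores and p-values) were not used.

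Expected contact was the mean over all chromosome 16 pairs at the same distance whose bins appear in the list. Intervals were Poisson for observed over expected contact and from the binomial (Clopper-Pearson) interval for ratios, at the 95% level. Listed contacts ranged from 110991835 to 170946673 per library, but single pairs held few. Genes, mm817 and sequence came from RefSeq (GRCm38.p6). The promoter table had an entry for Olig2 and not for Olig1. Scripts (Python 3.11.15, numpy 2.4.6, pandas 2.3.3, scipy 1.17.1) were tested on simulated data.

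The members, window, sectors and alternatives were chosen with earlier results of these data known. Named were the genes that start in the window, its enhancer, and for each gene the 3 bins with the highest mean observed over expected contact, more than 2 bins away with at least 40 contacts in all. The 2 ends were chosen after their values were seen. Alternatives were other expected values, correction for bin contacts, adjusted frequencies, a 3 by 3 square, scaling by total, and other insulation squares.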

Additional observations from a re-analysis of the deposited data

Results flagged for a closer look

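Several ratios had opposite signs in the 2 cell states or the 2 genotypes, each with 1 library a group, and these differences were not tested. PATZ1 KO over WT (log2) of the Olig1 to Olig2 contact was -0.066 in ESCs and 0.26 in MNs. Over all contacts of the window it was 0.089 in ESCs and -0.29 in MNs. For the contact of the 2 ends it was -0.35 in ESCs and 0.041 in MNs, and for Olig2 with the upstream end it was 1.84 in ESCs and -0.43 in MNs. Corrected for the contacts of each bin, the MN ratio of Olig2 with the upstream end was 0.24, so the signs no longer differed. In the sectors it was 0.26 and -0.24 upstream, 0.51 and -0.25 between the genes, and 0.0089 and -0.29 downstream, in ESCs and MNs. With the correction these were 0.088 and 0.32, 0.24 and 0.34, and -0.12 and 0.32, so the signs were alike upstream and between the genes. For the window they were -0.018 and 0.29, each turned.

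MNs over ESCs of Olig2 with the downstream end was 0.16 in WT cells and -0.24 in PATZ1 KO cells, but the WT value was -0.53 with the correction and -0.045 over listed pairs only. Over all contacts of the window it was 0.30 in WT cells and -0.084 in PATZ1 KO cells, and with the correction -0.24 and 0.068. Over pairs more than 2 bins apart it was 0.43 and 0.063, with 1 sign. Between the genes it was 0.66 in WT cells and -0.10 in PATZ1 KO cells, and with the correction 0.0024 and 0.10, which have 1 sign.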

How the results depend on the processing

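No paired analysis was possible because each group had 1 library, and for the same reason no library was left out. Of 144 values recomputed under settings listed at the start, 115 stayed within the counting interval of the value given, or within the spread of neighbouring bins for insulation. All 42 values for the Olig1 to Olig2 contact and its ratios were among these, although the 3 by 3 square turned the sign of 3 ratios. Other expected values turned it for MNs over ESCs in PATZ1 KO cells (0.018 over all 20 chromosomes, 0.025 corrected for bin contacts). For this single pair, adjusted frequencies gave the same values by construction, as did listed pairs only for PATZ1 KO over WT. The intervals of the pair were also wide, so these counts are not a measure of robustness.

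Correction for bin contacts changed most. It is built in part from the contacts it corrects, so a shift of the whole window is divided out through both bins of a pair. The turned signs below therefore do not decide a direction. MNs over ESCs in WT cells turned to -0.069 upstream and -0.27 downstream, and was 0.0024 between the genes. Sector values were then, upstream, 1.08 in WT ESCs, and 1.03 and 1.29 in WT and PATZ1 KO MNs. Between the genes they were 1.28 and 1.52 for WT and PATZ1 KO ESCs, with 1.63 for PATZ1 KO MNs, and downstream 1.40 in WT ESCs, and 1.17 and 1.46 in WT and PATZ1 KO MNs. PATZ1 KO over WT in MNs turned to 0.32 upstream, 0.34 between and 0.32 downstream, and to 0.24 for Olig2 with the upstream end. Over the window, in an alternative chosen after seeing the data, it turned to -0.018 in ESCs and 0.29 in MNs, and MNs over ESCs of the window to -0.24 in WT and 0.068 in PATZ1 KO cells. The cause was not tested. Without the bin of few contacts, the sector between the genes was 1.03, 1.50, 1.63 and 1.38 in WT ESCs, PATZ1 KO ESCs, WT MNs and PATZ1 KO MNs.

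Beyond 2 bins, PATZ1 KO over WT of the window was 0.048 in ESCs and -0.32 in MNs, and MNs over ESCs in PATZ1 KO cells turned to 0.063. With a 96 kb insulation square the Olig2 bin scored 0.20, 0.27, 0.76 and 0.33 in the same order of libraries, and the Olig1 bin 0.53 in WT ESCs, and 1.05 and 0.63 in WT and PATZ1 KO MNs. With 400 kb the Olig2 bin scored 0.25, 0.27, 0.90 and 0.60, and the Olig1 bin 0.28, 0.33, 0.98 and 0.69. Over listed pairs only, MNs over ESCs in PATZ1 KO cells turned to -0.018 upstream and -0.067 downstream, and the contact of the ends was 5.79, 4.56, 7.16 and 7.37. Depth limits most single pairs, whose expected contact was under 11 at 40 kb.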
